A study of Mus musculus with 12 samples.

Results

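The genes described here are 9 markers of resident and perivascular macrophages, namely Cd163, Lyve1, Mrc1, Folr2, Timd4, Cbr2, Retnla, F13a1 and Clec10a, taken by gene symbol from a table of 55281 genes. They were read out in bulk RNA of the gonadal fat depot (gonadal white adipose tissue, GWAT), and all 9 passed the filter on low counts, which left 18427 genes to test. The controls (WT) were Hoip fl/fl mice without AdipoQ.Cre, and the HoipA-KO mice were Hoip fl/fl mice carrying AdipoQ.Cre, so every mouse held the floxed alleles of Hoip (Rnf31), the catalytic subunit of the enzyme complex that builds linear ubiquitin chains. The adiponectin promoter drives this Cre in mature adipocytes, so macrophages of HoipA-KO mice keep their Hoip. The mice were males aged 22 to 24 weeks, fed from 6 weeks of age for 16 weeks a control diet (CD, 14% fat by the labels) or a high-fat diet (HFD, 60% fat). Each of the 4 groups had 3 libraries, and each library held the pooled tissue of 3 mice, so the spread between libraries is a spread between pools.

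Resident macrophages of adipose tissue lie along vessels, clear debris and soluble proteins by endocytosis, and renew themselves locally or from monocytes. Their markers are mostly endocytic receptors, such as the haemoglobin scavenger receptor CD163, the hyaluronan receptor LYVE1, the mannose receptor CD206 (Mrc1), the folate receptor beta (Folr2) and the phosphatidylserine receptor TIM4 (Timd4). In expanding or damaged fat they are joined by lipid-associated macrophages, which gather around dying adipocytes and carry the receptor TREM2.

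Between 30513500 and 60540260 counts were assigned to genes per library, so that 3 counts, taken as the floor, were worth 0.0496 to 0.0983 CPM (counts scaled to library size, here with TMM normalization over all 12 libraries). The members had 22 to 32018 counts in a library. Only Timd4 stayed near the low end, with 22 to 113 counts, and every member was above the floor in every library. Rnf31 itself was at 12.01 to 20.9 CPM in WT CD, 18.2 to 20.03 in WT HFD, 17.7 to 21.8 in HoipA-KO CD and 18.8 to 22.5 in HoipA-KO HFD, and no genotype difference passed (edgeR adjusted p = 0.654 with CD and 0.491 with HFD). Counts over the whole gene and the whole tissue do not check a deletion that is made in adipocytes. WT CD replicate 3 carried testis transcripts, with 19.6% of its counts in 3732 genes more than 8-fold above all other libraries, WT CD replicate 2 carried epididymal transcripts, with 6.83% in 363 such genes, and HoipA-KO HFD replicate 1 had 1.12% in 58. The study's deposited comparisons leave out WT CD replicate 3. The tests here do the same, with 11 libraries in 1 edgeR quasi-likelihood fit. The value over 12 libraries stands beside some of the results. No pair of libraries had the same count above 0 in more than 1.85% of all 55281 genes.

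On CD, members were called in both directions. In HoipA-KO tissue Cd163 and Retnla were lower than in WT, and Lyve1, Timd4, Cbr2 and F13a1 did not pass the test. Mrc1, Folr2 and Clec10a were higher in CPM, while relative to general macrophage genes, which rose more, these 3 were lower, as were 92.4% of all genes (the values, smaller than the median of all genes, are given further on). These 3 higher and 2 lower calls compare with 18.9% of all genes tested called higher and 18.8% called lower in the same fit. The count of lower members lies near the share of all genes called lower. Over 12 libraries the same 5 members were called, against 15.6% and 19.1% of genes. The median log2 fold change of the 9 members was -0.58, against -0.06 over all genes tested. All 5 calls held under each other setting that kept at least 2 WT CD libraries. Leaving out WT CD replicate 1 or 2 left 1 WT CD library, and there the 5 genes kept their direction. In such fits, here and below, p-values rest on the spread in the other groups. In bulk tissue fewer cells of a type and less RNA per cell cannot be told apart.

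Cd163, whose product takes up haemoglobin bound to haptoglobin, lies at chr6:124304656-124330527 of GRCm38. It was at 49.1, 28.1 and 31.3 CPM in the 3 WT CD libraries and at 7.71, 6.88 and 7.20 CPM in HoipA-KO CD. On HFD it was at 51.6, 56.2 and 41.8 CPM in WT and at 14.6, 13.2 and 14.1 CPM in HoipA-KO. Every HoipA-KO library was below every WT library, and the 3 pools of each HoipA-KO group lay within a narrow range. The level was 5.18-fold lower on CD (log2 fold change -2.37 ± 0.21 (SE), adjusted p = 0.000452 by edgeR) and 3.52-fold lower on HFD (-1.82 ± 0.20, adjusted p = 0.00723). Over 12 libraries the log2 fold changes were -2.35 and -1.83, with adjusted p = 0.000111 and 0.0163. From low to high the means were HoipA-KO CD at 7.27 ± 0.42 (SD, n = 3), HoipA-KO HFD at 13.99 ± 0.73, WT CD at 36.2 ± 11.3 and WT HFD at 49.9 ± 7.3 CPM. WT CD and WT HFD did not differ beyond their spread by the test (0.38 ± 0.22, adjusted p = 0.257). Cd163 passed in that comparison only without WT CD replicate 1 (0.84, adjusted p = 0.0115) or with WT CD replicates 2 and 3 as the controls (0.72, adjusted p = 0.0111).

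Retnla encodes RELMα, a secreted protein of alternatively activated macrophages, at chr16:48842551-48844461. Its levels were 188, 77.7 and 86.2 CPM in WT CD and 22.8, 11.3 and 26.5 CPM in HoipA-KO CD. On HFD it was at 163, 155 and 106 CPM in WT and at 20.9, 6.53 and 30.1 CPM in HoipA-KO. The ranges of the genotypes did not overlap on either diet. The difference was 6.45-fold on CD (-2.69 ± 0.59 on the log2 scale, adjusted p = 0.00692) and 7.31-fold on HFD (-2.87 ± 0.56, adjusted p = 0.0171), and over 12 libraries adjusted p was 0.00766 and 0.0358. On HFD the call was lost without WT HFD replicate 1 (-2.75, adjusted p = 0.0623) or replicate 2 (-2.80, adjusted p = 0.0608). The diet difference was 0.10 ± 0.59 in WT and -0.08 ± 0.53 in HoipA-KO, and neither passed. With these SEs larger changes in either direction are not excluded.

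Mrc1, the gene of the mannose receptor CD206 at chr2:14229392-14332057, went the other way. It was at 71.96, 46.9 and 56.5 CPM in WT CD, 147, 214 and 289 CPM in WT HFD, 351, 569 and 254 CPM in HoipA-KO CD and 307, 532 and 364 CPM in HoipA-KO HFD. WT CD lay apart from the other 3 groups, and the ranges of WT HFD and HoipA-KO CD overlapped. Against WT CD, the level was 6.79-fold higher in HoipA-KO CD (2.76 ± 0.46, adjusted p = 0.00192) and 3.66-fold higher in WT HFD (1.87 ± 0.44, adjusted p = 0.0242). On HFD every HoipA-KO library was above every WT library, and the difference of 0.91 ± 0.37 did not pass (adjusted p = 0.13).

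Folr2, which encodes folate receptor beta and lies at chr7:101839988-101857194, rose in the same comparisons. Its levels were 24.2, 16.9 and 13.5 CPM in WT CD, 56.0, 99.8 and 120 CPM in WT HFD, 84.0, 105 and 142 CPM in HoipA-KO CD and 162, 157 and 239 CPM in HoipA-KO HFD. WT CD was again below all other groups, and HoipA-KO HFD above all. The gene was 5.50-fold higher in HoipA-KO CD than in WT CD (2.46 ± 0.38, adjusted p = 0.00133) and 4.49-fold higher in WT HFD than in WT CD (2.17 ± 0.38, adjusted p = 0.00819). On HFD the genotypes differed by 1.03 ± 0.31 with adjusted p = 0.0593, which passed without WT HFD replicate 3 (1.29, adjusted p = 0.037) or WT CD replicate 2 (1.03, adjusted p = 0.0455). Exons of Folr2 share 975 bases with the antisense gene Gm10602, which was at 0.996 to 4.75 CPM in the 12 libraries.

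Clec10a, the gene of a galactose-binding lectin (MGL1, CD301a) at chr11:70156197-70170834, had 40.1, 21.3 and 23.5 CPM in WT CD, 61.4, 93.0 and 107 CPM in WT HFD, 118, 173 and 129 CPM in HoipA-KO CD and 131, 223 and 221 CPM in HoipA-KO HFD. On each diet every HoipA-KO library was above every WT library. The difference was 4.69-fold on CD (2.23 ± 0.39, adjusted p = 0.00231) and 2.23-fold on HFD (1.16 ± 0.32, adjusted p = 0.0471). The HFD call was at the edge of the threshold. Over 12 libraries its adjusted p was 0.0762, and it lay between 0.0533 and 0.166 when WT HFD replicate 1 or 2, any 1 of the HoipA-KO CD libraries, or replicate 2 or 3 of HoipA-KO HFD was left out.

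**Figure D1:**
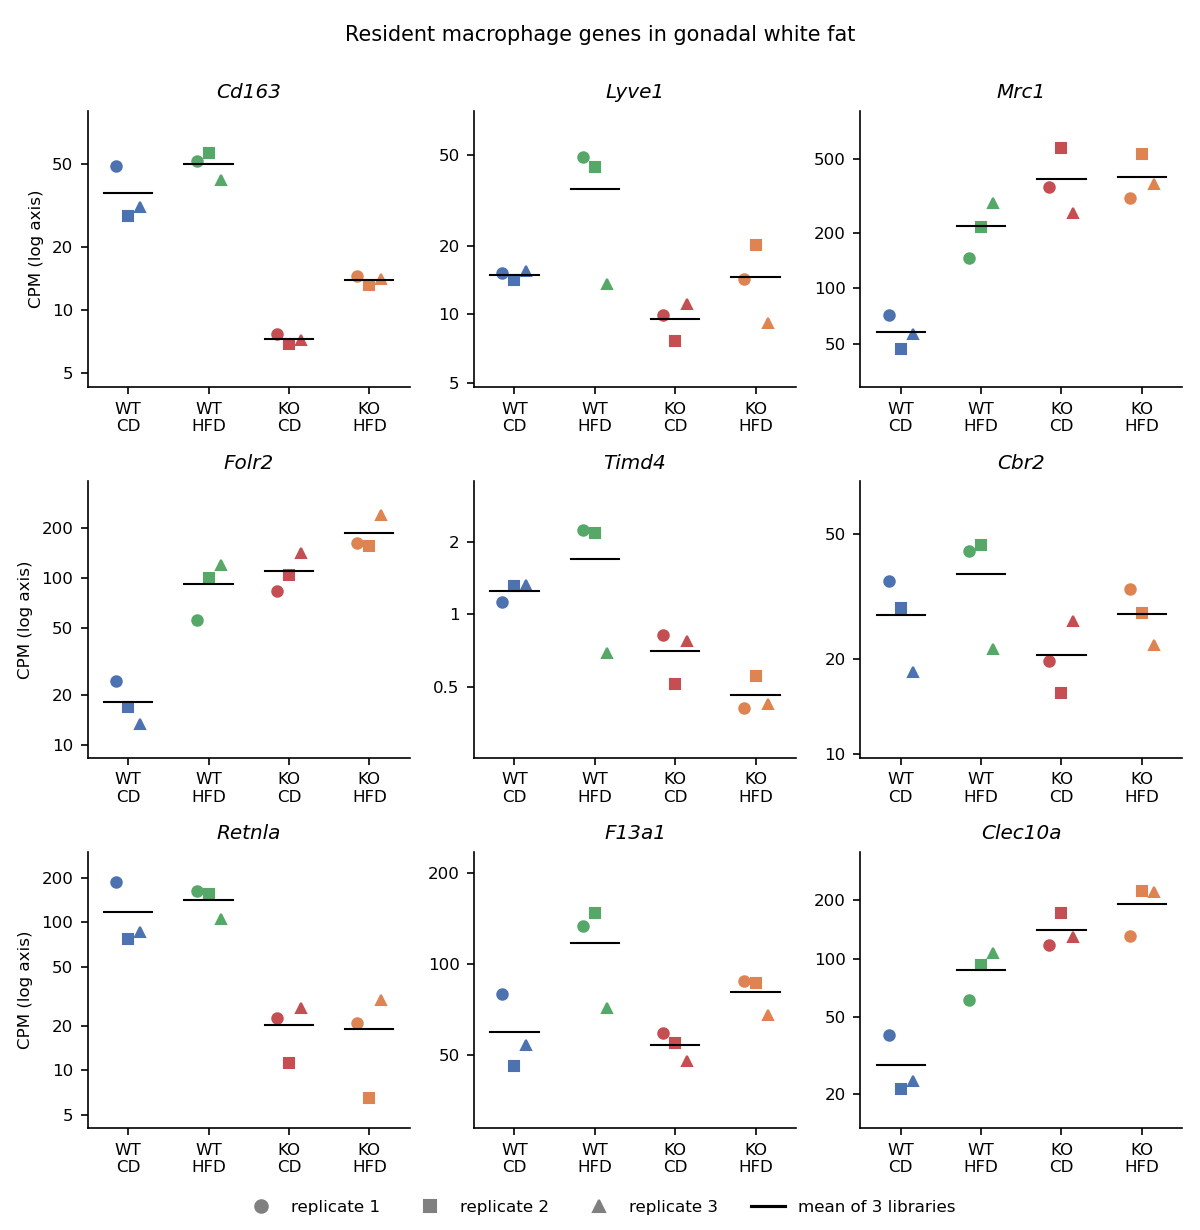
Level of each of the 9 genes in every library, in TMM-normalized CPM on a log axis, by genotype and diet; points are libraries, shaped by replicate number, and lines are means of 3 libraries (KO stands for HoipA-KO). Cd163 and Retnla are lower in all HoipA-KO libraries than in all WT libraries, while Mrc1, Folr2 and Clec10a are lowest in WT CD on this scale.

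To show what lies upstream of the members that moved apart, the bases before the RefSeq transcription start are printed for Cd163 and Retnla, which were lower, and for Mrc1, which was higher. The windows come from RefSeq on GRCm38.p6, which lists the 250 bases before a start for 7 of the 9 members (not for Lyve1 and Clec10a). The printed runs are chr6:124304401-124304650 for Cd163, chr16:48842359-48842550 for Retnla and chr2:14229164-14229391 for Mrc1, all on the plus strand, 5′ to 3′, and the Retnla and Mrc1 runs stop where the GENCODE annotation starts the gene. Capitals mark matches, on either strand, to motifs written for PU.1 (GAGGAAG), STAT6 (TTCNNNNGAA), C/EBP (TTGCNNAA) or MAF (TGCTGAC), and no 2 matches overlap.
Cd163: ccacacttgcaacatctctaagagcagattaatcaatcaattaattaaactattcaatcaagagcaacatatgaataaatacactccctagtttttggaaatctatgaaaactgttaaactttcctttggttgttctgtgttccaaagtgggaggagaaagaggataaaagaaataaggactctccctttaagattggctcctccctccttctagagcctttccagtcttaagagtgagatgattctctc
Retnla: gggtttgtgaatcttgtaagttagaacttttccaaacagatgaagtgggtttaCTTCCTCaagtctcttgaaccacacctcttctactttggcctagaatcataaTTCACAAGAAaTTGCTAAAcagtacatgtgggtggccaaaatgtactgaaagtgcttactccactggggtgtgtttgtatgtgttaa
Mrc1: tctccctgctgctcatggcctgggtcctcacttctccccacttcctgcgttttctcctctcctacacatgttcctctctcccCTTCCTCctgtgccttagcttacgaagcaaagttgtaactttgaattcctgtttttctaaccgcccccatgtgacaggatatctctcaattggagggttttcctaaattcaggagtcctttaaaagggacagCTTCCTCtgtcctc
Of 32851 promoter windows of the same length, 10.6% held the PU.1 letters, 5.85% those for STAT6, 9.56% those for C/EBP and 3.81% those for MAF. The Retnla window held all 4 motifs. Its STAT6 match, TTCACAAGAA, ran from 145 to 136 bases before the start, with 1 base between it and its C/EBP match, TTGCTAAA, at 134 to 127 bases, and its MAF match, 48 to 42 bases before the start, lies past the printed run. The Mrc1 window held the PU.1 letters at 168 to 162 and at 36 to 30 bases before the start, the Cd163 window held none of the 4, nor did the windows at both starts of Folr2. Of the others, Cbr2 and 1 of the starts of F13a1 had a PU.1 match, and Timd4 a MAF match. These are matches of letters and not measured binding sites.

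The other members did not pass between genotypes on CD. Lyve1, the hyaluronan receptor at chr7:110850607-110863239, was at 15.1, 14.2 and 15.5 CPM in WT CD and at 9.94, 7.68 and 11.1 CPM in HoipA-KO CD. On HFD it was at 49.0, 44.5 and 13.6 CPM in WT and at 14.4, 20.2 and 9.14 CPM in HoipA-KO. On CD all HoipA-KO libraries were below the WT libraries, and on HFD WT replicate 3 stood apart from the other WT pools and lay among the HoipA-KO libraries. The CD difference was -0.58 ± 0.48 on the log2 scale (adjusted p = 0.36). The HFD difference was -1.27 ± 0.44 (adjusted p = 0.0837), which passed without WT HFD replicate 3 (-1.65, adjusted p = 0.0149).

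Timd4, the phosphatidylserine receptor TIM4 at chr11:46810800-46844332, was the least abundant member. It was at 1.12, 1.31 and 1.33 CPM in WT CD and 0.821, 0.516 and 0.778 CPM in HoipA-KO CD, and at 2.22, 2.17 and 0.691 CPM in WT HFD and 0.408, 0.555 and 0.427 CPM in HoipA-KO HFD. The genotypes did not overlap on either diet, though WT HFD replicate 3 was close to the HoipA-KO HFD libraries. The difference did not pass on CD (-0.75 ± 0.48, adjusted p = 0.242) and passed on HFD over 11 libraries (-1.85 ± 0.45, 3.60-fold, adjusted p = 0.0337) but not over 12 (adjusted p = 0.0558). It was also lost without WT HFD replicate 1 or 2, HoipA-KO CD replicate 1, or any 1 HoipA-KO HFD library, with adjusted p of 0.0568 to 0.12.

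Cbr2, a carbonyl reductase at chr11:120729489-120732114, was at 35.4, 29.0 and 18.2 CPM in WT CD, 44.1, 46.1 and 21.5 CPM in WT HFD, 19.7, 15.5 and 26.4 CPM in HoipA-KO CD and 33.4, 28.0 and 22.2 CPM in HoipA-KO HFD. The genotypes overlapped on each diet. Neither the CD difference of -0.62 ± 0.33 (adjusted p = 0.157) nor the HFD difference of -0.40 ± 0.29 (adjusted p = 0.371) passed. The former passed only in the fit without WT HFD replicate 3 (-0.71, adjusted p = 0.038).

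F13a1, the A subunit of coagulation factor XIII at chr13:36867178-37050244, was at 79.4, 46.0 and 53.8 CPM in WT CD and at 59.1, 54.7 and 47.8 CPM in HoipA-KO CD. On HFD it was at 134, 147 and 71.4 CPM in WT and at 87.8, 86.6 and 67.9 CPM in HoipA-KO. The groups overlapped on both diets. The CD difference was -0.18 ± 0.31 (adjusted p = 0.669), which changed sign without WT CD replicate 1 (0.24, adjusted p = 0.623). The HFD difference was -0.52 ± 0.28 (adjusted p = 0.229) and passed without WT HFD replicate 3 (-0.77, adjusted p = 0.0432).

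On HFD, over 11 libraries, 3 members were lower in HoipA-KO (Cd163, Retnla and Timd4) and 1 was higher (Clec10a), against 7.62% of genes called lower and 4.2% called higher. Over 12 libraries 2 were lower and none higher, against 2.25% and 0.531%. DESeq2's Wald test on the 11 libraries called 3 higher and 4 lower, with Mrc1 (adjusted p = 0.0454), Folr2 (0.00685) and Lyve1 (0.0246) in addition. That test called 2216 of 18427 genes higher and 2239 lower. The median of the 9 log2 fold changes was -0.52, against 0.06 over all genes. Without WT HFD replicate 3, 2 members were higher and 5 lower, against 1149 and 1452 of 18376 genes. Without WT HFD replicate 1 or 2 only Cd163 was called, and calls over all genes fell as well. They were 42 higher and 237 lower of 18287 genes without replicate 1, and 38 and 293 of 18349 without replicate 2.

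**Figure D2:**
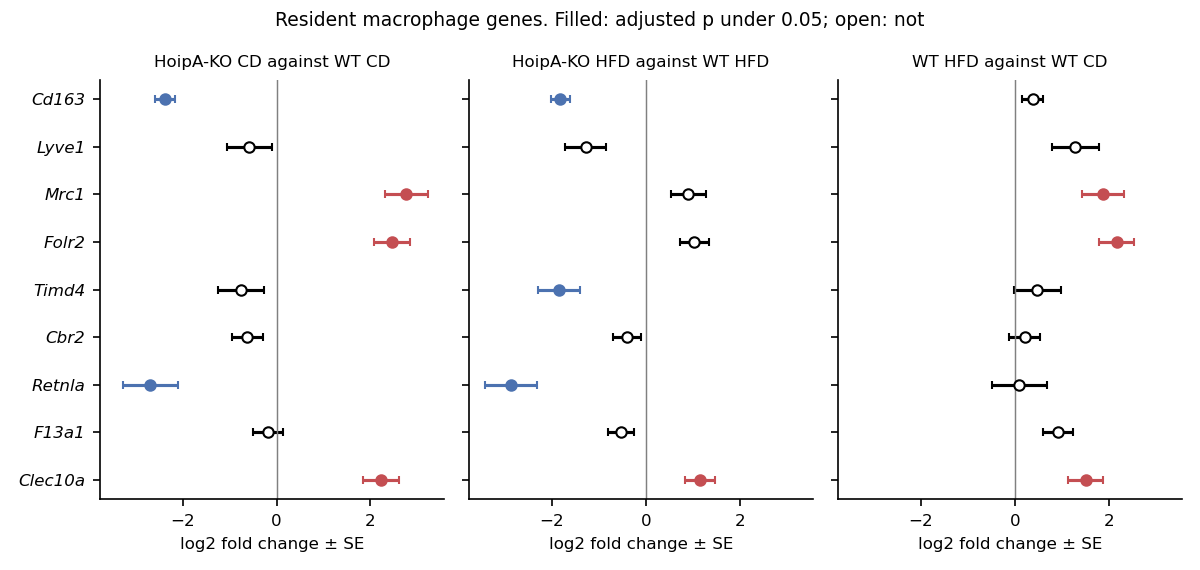
Log2 fold change ± SE of the 9 genes from the fit of 11 libraries, for HoipA-KO against WT on CD (left) and on HFD (middle) and for WT HFD against WT CD (right); filled points passed an adjusted p of 0.05 and open points did not. Cd163 and Retnla lie left of 0 on both diets, and Mrc1, Folr2 and Clec10a lie right of 0 in all 3 panels, which are on the TMM scale and not relative to macrophage genes.

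Whether the genotype difference depended on diet was tested as an interaction in the same fit. None of the 9 members passed, against 0.331% of genes called higher and 3.58% called lower. By edgeR 2 members had an unadjusted p under 0.05. These were Mrc1, with -1.85 ± 0.57 on the log2 scale (edgeR adjusted p = 0.099), and Folr2, with -1.42 ± 0.47 (edgeR adjusted p = 0.118). DESeq2 called both, with adjusted p = 0.0135 and 0.0356. Mrc1 also passed in edgeR without WT CD replicate 1 (-2.19, adjusted p = 0.0495) and Folr2 without WT HFD replicate 1 (-1.68, adjusted p = 0.0479).

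In WT mice HFD raised Mrc1, Folr2 and Clec10a, and no member was called lower by edgeR or DESeq2. Clec10a was 2.85-fold higher (1.51 ± 0.38, adjusted p = 0.0283). These 3 calls compare with 9.35% of genes called higher and 5.47% called lower, and the members' median of 0.91 with 0.0036 over all genes. Over 12 libraries F13a1 passed as well (0.94 ± 0.28, adjusted p = 0.0469), against 9.05% and 5.97% of genes. Without WT CD replicate 2 none of Mrc1 (1.6, adjusted p = 0.129), Folr2 (1.94, adjusted p = 0.0539) and Clec10a (1.13, adjusted p = 0.151) passed. Without WT HFD replicate 2 or 3, Mrc1 (adjusted p = 0.0613 and 0.0815) and Clec10a (0.0769 and 0.0917) were lost and Folr2 kept its call, and without WT HFD replicate 3 Lyve1 (1.58, adjusted p = 0.0325) and F13a1 (1.08, adjusted p = 0.0342) passed. Without WT CD replicate 1, Cd163 and F13a1 (1.36, adjusted p = 0.0277) joined Mrc1, Folr2 and Clec10a.

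In HoipA-KO mice no member passed between the diets by edgeR, nor did any gene tested (0% of 18427 in either direction). By the same test 415 genes had an unadjusted p under 0.05. DESeq2 called 7 genes, all higher, 1 of them Cd163 (0.94, adjusted p = 0.0269). In edgeR Cd163 was higher on HFD by 0.93 ± 0.19 (unadjusted p = 0.000778, adjusted p = 1) and Folr2 by 0.74 ± 0.31 (unadjusted p = 0.0388, adjusted p = 1). Each HoipA-KO HFD library was above each HoipA-KO CD library for both genes. The members' median was 0.44, against -0.01 over all genes.

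HoipA-KO on CD was also set against WT on HFD, a comparison that shares its libraries with the genotype comparisons above but sets nothing against the WT CD libraries. Cd163 (-2.75 ± 0.20, adjusted p = 0.00251), Lyve1 (-1.87 ± 0.45, adjusted p = 0.0244), Retnla (-2.79 ± 0.56, adjusted p = 0.0155) and F13a1 (-1.09 ± 0.28, adjusted p = 0.0317) were lower in HoipA-KO CD, and no member was higher, against 9.07% of genes called lower and 6.78% called higher (median -1.09 for the members and 0.04 for all genes). Mrc1 differed by 0.89 ± 0.37 (adjusted p = 0.126), Folr2 by 0.29 ± 0.31 (adjusted p = 0.545) and Clec10a by 0.72 ± 0.32 (adjusted p = 0.149). Lyve1 and F13a1 lost the call without WT HFD replicate 1 or 2 or any 1 HoipA-KO CD library (adjusted p of 0.0614 to 0.112), as did Retnla, except without HoipA-KO CD replicate 3 (0.0526 to 0.0555 in the other 4). Without WT HFD replicate 3, Timd4 (-1.61, adjusted p = 0.0176) and Cbr2 (-1.11, adjusted p = 0.0168) were called too. Calls over all genes moved in these fits as well and are given further on.

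The 3 WT HFD pools differed among themselves. Replicate 3 had the lowest level of the 3 pools for 6 members, namely Cd163, Lyve1, Timd4, Cbr2, Retnla and F13a1, and the highest for the other 3, Mrc1, Folr2 and Clec10a. The same library was highest in general macrophage genes, whose geometric mean over 16 genes was 84.2, 152 and 241 CPM in WT HFD replicates 1, 2 and 3, with Adgre1 (F4/80) at 102, 265 and 526 CPM. It was also low in lymphatic endothelial genes, with Ccl21a at 106, 99.6 and 1.66 CPM and a sum over 6 genes of 202, 193 and 43.6 CPM. Over all groups that sum ran from 49.8 to 141 CPM in WT CD, 121 to 167 CPM in HoipA-KO CD and 111 to 144 CPM in HoipA-KO HFD. Lyve1 is known to be made by lymphatic endothelium as well. The part of these differences between pools in the members' values was not tested.

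General macrophage genes gave a second scale. Their geometric mean was 23.6 to 31.2 CPM in WT CD, 84.2 to 241 in WT HFD, 348 to 376 in HoipA-KO CD and 300 to 421 in HoipA-KO HFD, and 15 of the 16 genes were higher in HoipA-KO on CD and 10 on HFD (14 and 1 over 12 libraries). Relative to this mean, Cd163 had a ratio of 1.57, 1.12 and 1.33 in WT CD and 0.0222, 0.0183 and 0.0196 in HoipA-KO CD. Retnla had ratios of 6.04, 3.09 and 3.65 against 0.0655, 0.0301 and 0.0722. For both genes each HoipA-KO ratio was far below each WT ratio. Mrc1 changed least on this scale, with 2.31, 1.86 and 2.40 in WT CD and 1.01, 1.51 and 0.690 in HoipA-KO CD, so its level rose less than that of general macrophage genes. On HFD the ratio of Cd163 was 0.613, 0.370 and 0.174 in WT and 0.0489, 0.0314 and 0.0361 in HoipA-KO, and that of Folr2 was 0.665, 0.657 and 0.5 against 0.542, 0.373 and 0.611.

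With the libraries scaled to these macrophage genes in place of TMM, all 9 members were lower in HoipA-KO on CD, but so were 92.4% of all genes. On HFD 6 members were lower, against 63.3% of genes, in WT HFD against WT CD 4, against 83.2%, and in HoipA-KO CD against WT HFD 7, against 65.3%. In HoipA-KO fed HFD against CD none passed in edgeR (0% of genes, with 2 members and 279 genes at an unadjusted p under 0.05). Between genotypes on either diet the members' share lies near that of all genes, and with diet in WT it was lower than that of all genes, a difference that was not tested. On this scale Retnla was lower on CD by -6.35 ± 0.82 and Cd163 by -6.07 ± 0.52, against a median of -3.79 over all genes, whereas Mrc1 was lower by -0.96 ± 0.37, Folr2 by -1.26 ± 0.33 and Clec10a by -1.48 ± 0.33. The interaction passed for 4 members, all higher, against 74% of genes called higher. The count of lower members with diet in WT was 6 over 12 libraries, against 15979 of 18074 genes. It was 2 without WT HFD replicate 2 (13661 of 18349 genes) or 3 (13987 of 18376), and 7 without replicate 1 (16208 of 18287). The count for the interaction was 2 without WT HFD replicate 2 or HoipA-KO CD replicate 1, and 7 without WT HFD replicate 1. In these fits 11296 of 18349, 12264 of 18358 and 15579 of 18287 genes were called higher, in that order.

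**Figure D3:**
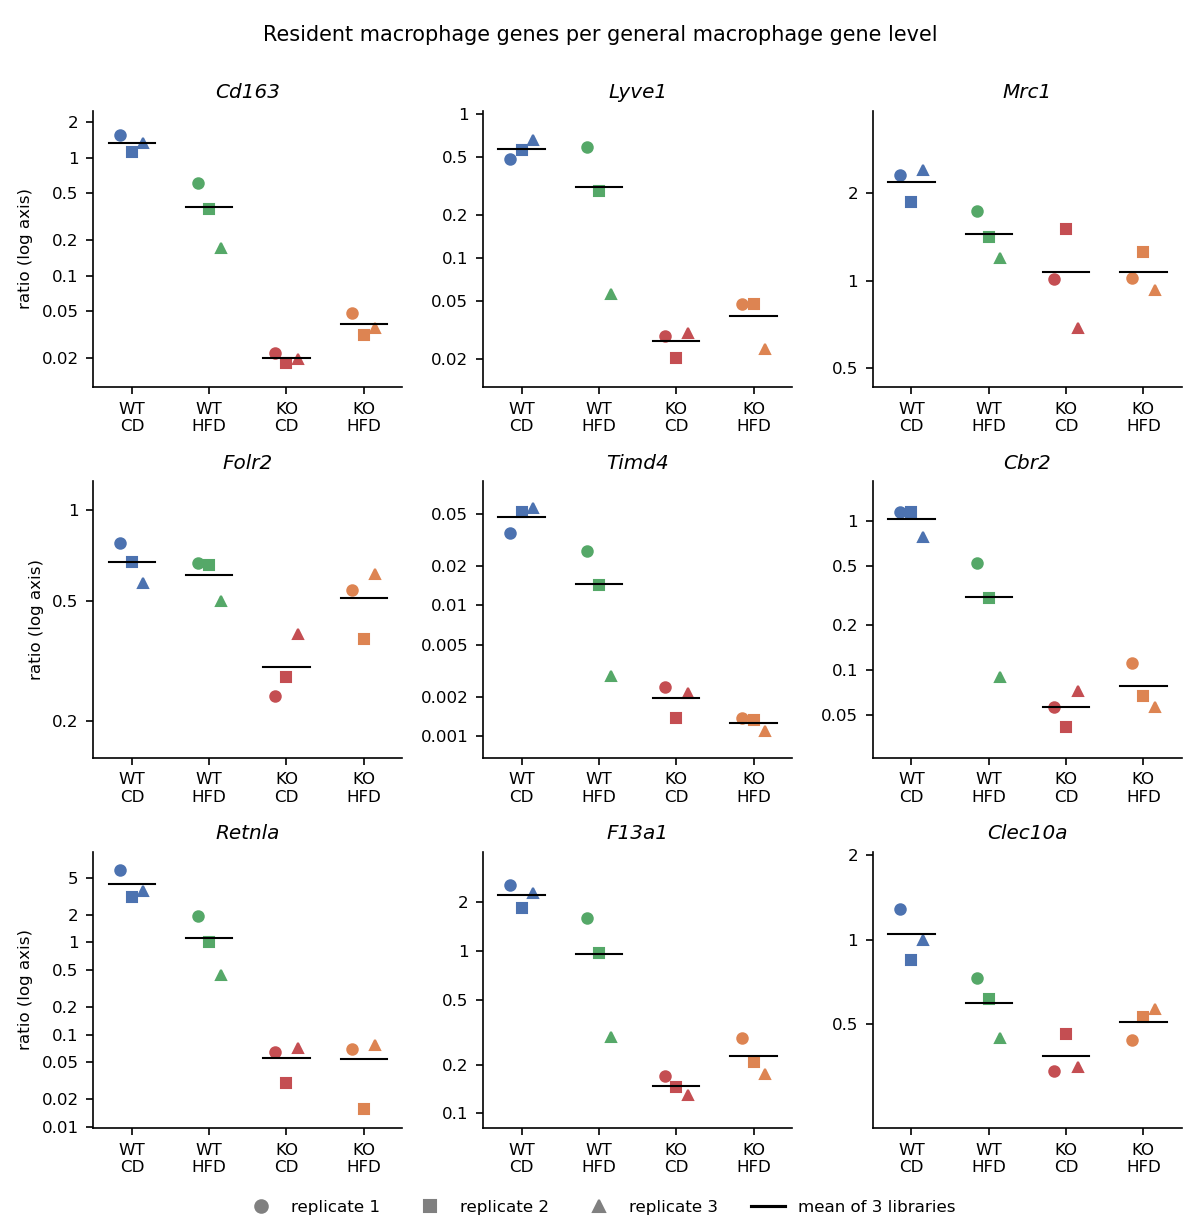
Level of each of the 9 genes divided by the geometric mean of 16 general macrophage genes in the same library, on a log axis; points are libraries and lines are means of 3 libraries (KO stands for HoipA-KO). The ratio of Cd163 falls from a mean of 1.34 in WT CD to 0.02 in HoipA-KO CD, while that of Mrc1 goes from 2.19 to 1.07.

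Ratios between members within a library compare them on a scale that needs no normalization. Mrc1 had 1.47, 1.67 and 1.81 times the CPM of Cd163 in WT CD, 2.84, 3.81 and 6.92 times in WT HFD, 45.5, 82.7 and 35.2 times in HoipA-KO CD and 21.0, 40.2 and 25.7 times in HoipA-KO HFD. All 6 HoipA-KO libraries were above all 6 WT libraries. These pairs were chosen after the values were seen and were not tested.

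Members have close relatives in the genome, and these did not always move with them. Mgl2, the neighbouring gene of the related lectin CD301b, was at 27.7, 16.4 and 16.2 CPM in WT CD, 33.4, 32.4 and 24.0 CPM in WT HFD, 13.9, 12.99 and 13.3 CPM in HoipA-KO CD and 10.2, 12.2 and 15.8 CPM in HoipA-KO HFD. It fell on HFD (-1.21 ± 0.23, adjusted p = 0.0159) and did not pass on CD (-0.68 ± 0.25, adjusted p = 0.0582), in the direction opposite to Clec10a on both diets. The ratio of Clec10a to Mgl2 was 1.30 to 1.45 in WT CD, 1.84 to 4.47 in WT HFD, 8.51 to 13.3 in HoipA-KO CD and 12.9 to 18.2 in HoipA-KO HFD. The coding sequences of this pair are alike, so Salmon may have shared reads between them, and their separate counts are less certain than the others. Retn, the adipocyte hormone resistin and a relative of Retnla, fell with either diet, by -4.14 ± 0.62 with CD (adjusted p = 0.00114) and -3.11 ± 0.57 with HFD (adjusted p = 0.0146). Of the 17 tested relatives of members, 4 were higher and 3 lower on CD, and 1 higher and 2 lower on HFD. These counts lie near the shares of all genes, 18.9% higher and 18.8% lower on CD and 4.2% and 7.62% on HFD. The higher call among these relatives on HFD was lost over 12 libraries.

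The wider resident and perivascular macrophage list, 23 genes without the members, also held genes called in both directions. On CD 15 were higher in HoipA-KO and 5 lower, against 18.9% and 18.8% of all genes tested. The lower count lies near that of all genes. On HFD 7 were higher and 4 lower, against 4.2% and 7.62%. The median change was 1.46 on the log2 scale on CD, against -0.06 over all genes, and 0.57 on HFD, against 0.06. The lower genes on both diets were the 4 genes of the C-type lectin cluster Cd209b, Cd209d, Cd209f and Cd209g, relatives of human DC-SIGN. Cd209b was at 5.26, 2.74 and 3.58 CPM in WT CD and 0.962, 0.409 and 0.512 CPM in HoipA-KO CD (-2.64 ± 0.53, adjusted p = 0.00437), and on HFD at 6.34, 8.55 and 3.10 CPM in WT and 1.11, 1.20 and 1.96 CPM in HoipA-KO (-2.05 ± 0.48, adjusted p = 0.0289). The genotypes did not overlap for Cd209b on either diet. Cd209d fell by 2.46 on CD on the log2 scale (adjusted p = 0.0158) and by 2.23 on HFD (adjusted p = 0.0436). The Cd209 genes are alike in sequence, and their counts may share reads.

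Among the 15 higher genes on CD was Hmox1, the gene of the haem-degrading enzyme. It was at 37.7, 21.8 and 18.3 CPM in WT CD and 488, 795 and 621 CPM in HoipA-KO CD (4.46 ± 0.57, adjusted p = 0.000625), with 76.8, 151 and 153 CPM in WT HFD and 299.9, 612 and 234 CPM in HoipA-KO HFD (1.61 ± 0.42, adjusted p = 0.0401). No HoipA-KO library overlapped the WT libraries of its diet. The genotype difference was smaller with HFD than with CD (interaction -2.84 ± 0.65, adjusted p = 0.0448), which did not pass relative to general macrophage genes (-0.48 ± 0.55, adjusted p = 0.432). Slc40a1, the iron exporter ferroportin, rose by 2.57 ± 0.55 on CD (adjusted p = 0.00616) and by 2.22 ± 0.46 on HFD (adjusted p = 0.021). CD163, HMOX1 and ferroportin act along the same route, the uptake of haemoglobin, the breakdown of haem and the export of iron. Here the receptor gene was lower while those of the enzyme and the exporter were higher. Relative to general macrophage genes on CD, however, Slc40a1 was lower (-1.24 ± 0.50, adjusted p = 0.0319), as were 92.4% of all genes. Hmox1 did not pass on that scale (0.74 ± 0.42, adjusted p = 0.108). Over 12 libraries the counts of this list were unchanged on CD and fell to 1 higher and 1 lower on HFD. Cd209b (edgeR adjusted p = 0.0519), Cd209d (0.0712) and Hmox1 (0.0705) were among those that lost the HFD call. Of all genes 15.6% were then called higher and 19.1% lower on CD, and 0.531% and 2.25% on HFD.

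**Figure D4:**
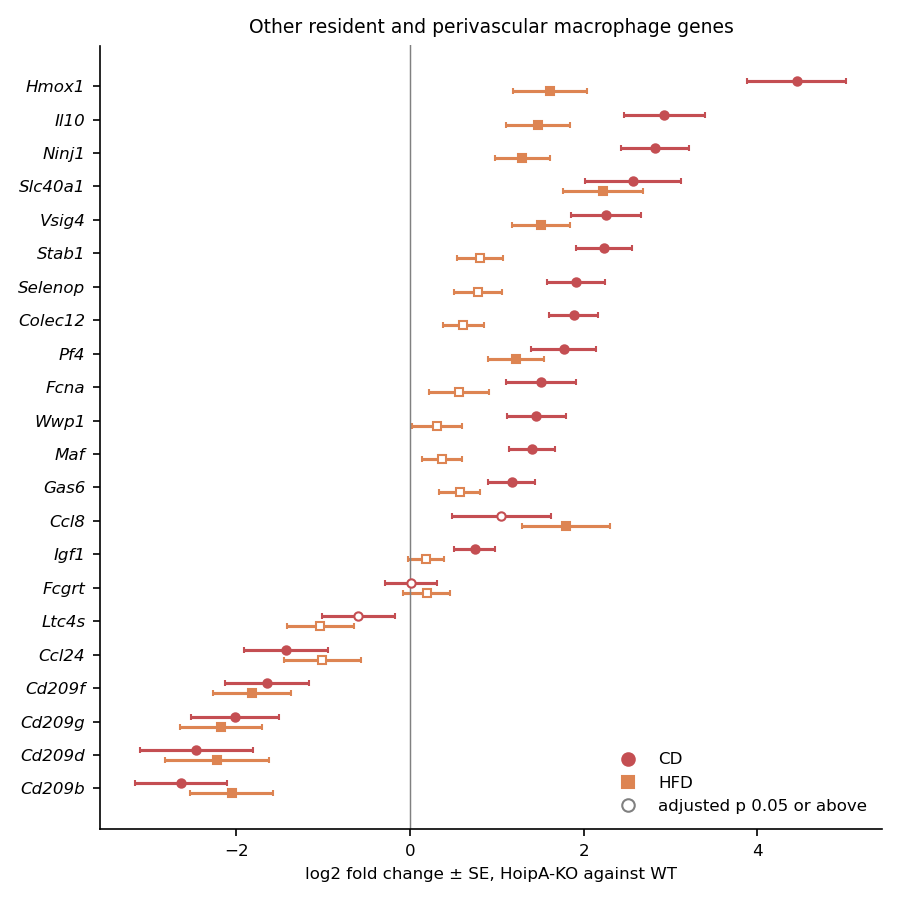
Log2 fold change ± SE of HoipA-KO against WT for 22 of the 23 other resident and perivascular macrophage genes, on CD (circles) and HFD (squares), from the fit of 11 libraries on the TMM scale; open points did not pass an adjusted p of 0.05. Hmox1 lies farthest to the right on CD at 4.46, and the 4 Cd209 genes lie left of 0 on both diets.

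Lists of other macrophage states and signals moved as follows, beside 18.9% of all genes called higher and 18.8% lower on CD. On HFD these shares were 4.2% and 7.62%. All 12 lipid-associated macrophage genes were higher in HoipA-KO on CD and 4 on HFD (12 and 1 over 12 libraries), and their summed level was 400 to 1074 CPM in WT CD, 2345 to 8208 CPM in WT HFD, 17240 to 25590 CPM in HoipA-KO CD and 9669 to 22710 CPM in HoipA-KO HFD. By comparison the 9 members summed to 281.5 to 504 CPM in WT CD and 645 to 943 CPM in HoipA-KO CD. On HFD they summed to 707.6 to 857.8 CPM in WT and 771.7 to 1066 CPM in HoipA-KO, which overlap. This sum joins members called in opposite directions, so it does not describe a rise of each. Of 13 alternative activation genes, 7 were higher and none lower on CD, and 2 were higher and 1 lower on HFD. Over 12 libraries 1 of the 2 higher genes on HFD lost its call. Arg1, the arginase gene and like Retnla a marker of that state, rose on both diets (3.34 ± 0.43, adjusted p = 0.000634, and 1.81 ± 0.33, adjusted p = 0.0147), but relative to general macrophage genes it passed on neither (-0.38 ± 0.59 and 0.38 ± 0.52). Of 10 tested growth factor and type 2 cytokine genes, 5 were higher on CD and 1 on HFD, and the HFD call was lost over 12 libraries.

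Markers of other cell types were counted in the same way, beside 18.9% of all genes called higher and 18.8% called lower on CD, and their part in the members' values was not tested. The CD counts of the lymphatic, monocyte, dendritic cell and peritoneal lists lie near those shares. The 10 adipocyte genes summed to 12730 to 47560 CPM in WT CD, 21690 to 28990 in WT HFD, 6077 to 9131 in HoipA-KO CD and 5469 to 8083 in HoipA-KO HFD, and 9 of them were lower in HoipA-KO on CD and 10 on HFD (8 and 6 over 12 libraries). Of 6 lymphatic endothelial genes 1 was higher on CD and none passed on HFD, and Prox1, a defining marker, was at 0.147 to 6.30 CPM over the 12 libraries. Of 6 blood endothelial genes 2 were lower on each diet, and the HFD calls were lost over 12 libraries. Of 6 monocyte genes 1 was higher on each diet, of 8 dendritic cell genes 2 were higher and 1 lower on CD and none passed on HFD, and of 6 peritoneal macrophage genes 1 was higher on CD and none on HFD. Of 4 tested platelet genes 2 were higher on CD and 1 on HFD, and the HFD call was lost over 12 libraries. Of 4 tested eosinophil genes 2 were higher on CD and none on HFD, and of 6 adipose progenitor genes 2 were higher on CD and none on HFD. Of 8 epididymal genes 1 was lower on CD, and their sum was 15590 CPM in WT CD replicate 2 and 0.512 CPM in replicate 1. All 6 tested testis genes were lower on CD and none passed on HFD, and their sum was 17, 308.5 and 8526 CPM in WT CD replicates 1, 2 and 3 (the third is not in the fit) and at most 2.54 CPM in the other groups.

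Per kilobase of exon, which allows levels of different genes to be compared, the mean CPM per kilobase in WT CD ran from 0.576 for Timd4 to 196 for Retnla, with Cbr2 next at 20.8. In HoipA-KO CD the order at the top was Folr2 at 71.4, Mrc1 at 61.4, Clec10a at 48.3 and Retnla at 33.7. In HoipA-KO HFD Folr2 led at 120 and Timd4 was again last at 0.213.

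The genes whose log2(CPM + 1) was most like a member's over the 12 libraries, among 12241 genes with a mean of at least 5 CPM, were Adgra3 (Pearson r = 0.962), Slc25a25 and Amotl1 for Cd163, and Ppp1r16b (0.988), Gstz1 and Pcyt2 for Retnla. For Mrc1 they were Foxp1 (0.993), Ticam2 and Kcnk6, for Folr2 Rcn3 (0.985), C1qa and Cnn2, and for Clec10a Adcy3 (0.984), Ifi204 and Efemp2. For Lyve1 they were Ackr3 (0.840), Ccn3 and Vegfd, for Cbr2 Ccn3 (0.874), Anapc16 and Nupr1, for F13a1 Vegfd (0.899), Fam174b and Pdgfd, and for Timd4 Abat (0.875), Cd209f and Rapgef5. These are descriptions over 12 libraries in 4 groups that share their depth and tissue makeup, and no p is given.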

How the data were processed

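Poly(A)-selected libraries were sequenced from pooled GWAT. The authors trimmed reads with Trim Galore 0.6.7, aligned them with STAR 2.7.10a and estimated counts per gene with Salmon 1.5.2, and they deposited these expected (estimated) counts without normalization, for all genes and for protein-coding genes. How strand was set in counting is not given in the sources used here. The authors also deposited 3 tables of log2 fold changes and p-values from DESeq2 1.38.1, with CPM, which were not used. The study's methods name GRCh38 and its processing notes GRCm38. The identifiers are those of mouse genes, and positions are from GENCODE on GRCm38.

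Estimated counts of all genes, 59 of them without a symbol and kept by identifier, were rounded, filtered with filterByExpr by group, normalized by TMM and fitted as 4 group means over 11 libraries with edgeR 4.0.16 in R 4.3.3 (glmQLFit, glmQLFTest, prior count 0.125). P-values were adjusted by Benjamini-Hochberg over all genes tested, with a threshold of 0.05, and measure the spread between pools. A second fit scaled each library to the geometric mean of 16 general macrophage genes. Floors cover counting error only. The fits were tested on simulated data with 100 genes changed at each size. They recovered 9% to 18% of log2 changes of 1 and 54% to 64% of changes of 2, depending on the comparison. Far fewer genes were changed there than were called on CD, and the adjustment depends on that number. The shares may therefore differ from those in the real comparisons. A result that did not pass may thus be a change that was missed.

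The 9 members and all lists were chosen with earlier results of these data known. The rule for named genes took the members, the 2 most abundant and the 2 most changed genes each way of every list, relatives that share a name stem, and the 3 genes most like each member, of which those that bear on a result are given. A single gene of the wider resident list counts in its totals and is not reported here by name. Arg1, Slc40a1, Adgre1, Ccl21a, Prox1, Cd209f, Cd209g and the pair ratios were chosen after their values were seen.

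The settings varied were DESeq2 1.42.0 (Wald test, or its size factors), library size alone, no filter, at least 10 counts in every library, protein-coding genes only, other sets of WT CD libraries, a replicate block, only the groups compared, other macrophage scales, and leaving out each library.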

Additional observations from a re-analysis of the deposited data

Results flagged for a closer look

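The genotype difference, taken relative to the 16 general macrophage genes, differed between the diets by the test of the interaction (edgeR) for 4 members. The difference on HFD minus that on CD was 2.76 ± 0.61 on the log2 scale for Cd163 (adjusted p = 0.00639), 2.38 ± 0.77 for Cbr2 (adjusted p = 0.0171), 1.8 ± 0.72 for F13a1 (adjusted p = 0.0399) and 1.25 ± 0.45 for Clec10a (adjusted p = 0.0247). On this scale 74% of all genes tested were called in the same direction, with a median of 2.25 over all genes, so of the 4 only Cd163 and Cbr2 were above that median. With TMM normalization none of the 4 passed, at 0.56 (adjusted p = 0.28), 0.22 (0.807), -0.34 (0.672) and -1.07 (0.22), and F13a1 and Clec10a had the opposite sign.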

How the results depend on the processing

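Over 1197 values of single members under another setting, 1099 kept their direction and side of the threshold, 47 lost the call, 34 gained one and 17 changed sign. The 5 calls for HoipA-KO against WT on CD held under every setting that kept at least 2 WT CD libraries. With 1 library of another group left out, 5 to 6 members were called. For the genotypes on HFD, 4 members became 2 with 12 libraries, 2 with WT CD replicates 1 and 3 and 7 with DESeq2, and leaving out 1 library gave 1 to 7. For diet in WT, 3 became 5 with WT CD replicates 2 and 3 and 0 with only the groups compared. Leaving out 1 library changed these calls as given above. For diet in HoipA-KO, 0 became 1 with DESeq2. For HoipA-KO CD against WT HFD, 4 became 1 to 6 without 1 library. For the interaction, 0 became 3 with WT CD replicates 2 and 3, 2 with DESeq2, and 0 to 1 without 1 library. Relative to macrophage genes the count for diet in WT ran from 2 to 7 and that for the interaction from 2 to 7 without 1 library. The scale without Aif1, chosen after seeing the data, gave 6 and 5. On that scale 15515 of 18427 genes were lower with diet in WT, and 14069 were higher in the interaction. Calls over all genes moved under these settings too. For the genotypes on HFD, 151 of 18556 genes were higher and 521 lower with WT CD replicates 1 and 3. For diet in WT, 3338 of 19416 were higher and 3708 lower with WT CD replicates 2 and 3. With only the groups compared no gene passed for diet in WT, and without WT HFD replicate 2, 982 of 18349 were higher and 155 lower. For HoipA-KO CD against WT HFD, 112 of 18287 genes were higher and 381 lower without WT HFD replicate 1. Without WT HFD replicate 3, 1391 of 18376 were higher and 1673 lower in that comparison. For the interaction the calls were 1668 and 1882 of 19416 with WT CD replicates 2 and 3, and 905 and 1469 of 18427 with DESeq2. The causes were not tested.

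Changes of sign were all in values that did not pass. The F13a1 difference on CD was 0.0873 with WT CD replicates 2 and 3, 0.0116 with the replicate block and -0.514 to 0.243 without 1 library. That of Cbr2 in the interaction was -0.00733 with WT CD replicates 1 and 3 and -0.2 with 2 and 3. Retnla with diet in HoipA-KO was 0.0407 with library size alone and -0.576 to 0.323 without 1 library, with diet in WT -0.399 to 0.873, and in the interaction -0.949 to 0.315. Mrc1 with diet in HoipA-KO was -0.256 to 0.419.

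Whether replicate numbers pair the libraries was not tested. Deviations of same-numbered libraries correlated at -0.311 to 0.499 (median 0.0393, 6 of 18 pairs over 0.1). Those of libraries with different numbers correlated at -0.51 to 0.428 (median -0.0207, 7 of 36 pairs over 0.1). Of 12 libraries, 7 matched their own number best. With the number as a block, 5, 4, 2, 0, 4 and 0 members were called, in the order of the comparisons above. Timd4, with 22 to 113 counts in a library, was the member most limited by depth.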
